A study of Homo sapiens with 6 samples.

Results

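Among 1705 genes listed as changed between gefitinib-resistant PC9-GR cells and parental PC9 cells, 8 protein-coding genes combined a mean of at least 1 FPKM in PC9 with a mean below 0.2 FPKM in PC9-GR. FPKM is the number of sequenced fragments scaled to transcript length and library size. The 8 genes are B3GNT8, XYLT1, SULT1C2, PARD6A, NTNG1, NUGGC, GFY and FAM133A. They were taken from 1375 protein-coding rows. In all, 15 such rows met both levels. The choice left out 4 of these because they lie on chromosomes 14 or 18 and 3 by name (MAGEA4, CEACAM6 and LYZ). No row on chromosome 3 and none with a symbol starting in SLC or ZNF met both levels. The levels that chose the genes are the same ones reported here, so the differences between the lines are given as a description, with no test.

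PC9 is a human lung adenocarcinoma line of epithelial origin that carries an EGFR exon 19 deletion, an activating lesion of the EGF receptor. PC9-GR is its derivative, selected on gefitinib, an EGFR kinase inhibitor, in steps between 0.5 and 10 µM and kept at 10 µM. It carries the same deletion per the labels and grew 7 days without the drug before RNA was taken, so the drug was absent from both lines at harvest. Each line gave 3 libraries of total RNA from independent cultures. PC9-GR is 1 selected line, so its resistance and its separate culture history cannot be told apart. None of 10 epithelial and none of 15 alveolar or airway secretory markers is among the listed genes, so the labelled cell type was not checked with them. Sequencing depth is unknown, because the table holds no counts. Summed FPKM over the listed genes was 16705 to 17114 in PC9-GR libraries and 28346 to 30541 in PC9 libraries.

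The genes do not form a known pathway. B3GNT8 and XYLT1 encode Golgi enzymes that build sugar chains, SULT1C2 a cytosolic sulfotransferase, PARD6A a cell polarity scaffold and NTNG1 a membrane-anchored netrin. NUGGC, GFY and FAM133A are best known from other tissues, namely germinal centre B cells, olfactory neurons in the mouse and testis. The Golgi enzymes and the sulfotransferase act on molecules at or outside the cell surface or on small compounds, while PAR6 scaffolds organise the polarity of epithelial sheets.

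Levels in PC9-GR were low but not absent: none of the 8 genes was listed at the table's lowest value of 0.001 FPKM in any library. The PC9-GR means ran between 0.0433 and 0.196 FPKM (median 0.174). The PC9 means ran between 1.04 and 4.66 FPKM (median 1.84). Of 24 single PC9-GR values 17 were under 0.2 FPKM, and of 24 single PC9 values 19 reached 1 FPKM. By contrast, 4 of the 7 rows that the choice left out were at the lowest value in every PC9-GR library. In bulk RNA, fewer cells that transcribe a gene and less RNA in each cell cannot be told apart.

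**Figure D1:**
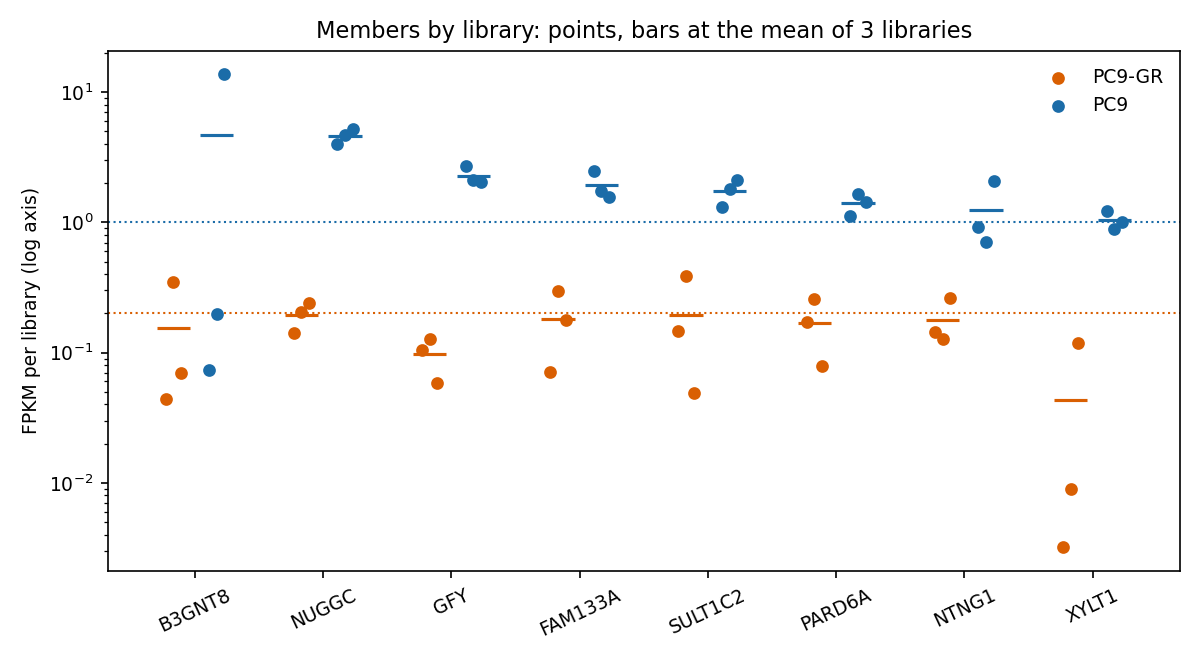
FPKM of each of the 8 genes in the 3 PC9-GR and the 3 PC9 libraries, on a log axis; points are libraries, bars their means, and dotted lines the levels of 0.2 and 1 FPKM that chose the genes. B3GNT8 is the gene whose groups overlap, with 1 PC9 library at 13.7 FPKM and the other 5 libraries below 0.35 FPKM.

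In 7 of the 8 genes every PC9-GR library lay below every PC9 library, and B3GNT8 was the exception. Over the whole table this held for 46.6% of the 1705 rows. The genes were chosen on this contrast, so nothing is read from these shares. The lowest PC9 value exceeded the highest PC9-GR value by 2.73-fold in NTNG1 and by up to 16.5-fold in NUGGC, with the other 5 separated genes between them. PC9-GR replicate 2 held the highest PC9-GR value for 5 of the 8 genes. How often that library was the highest over all rows was not counted, so nothing is read from this.

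**Figure D2:**
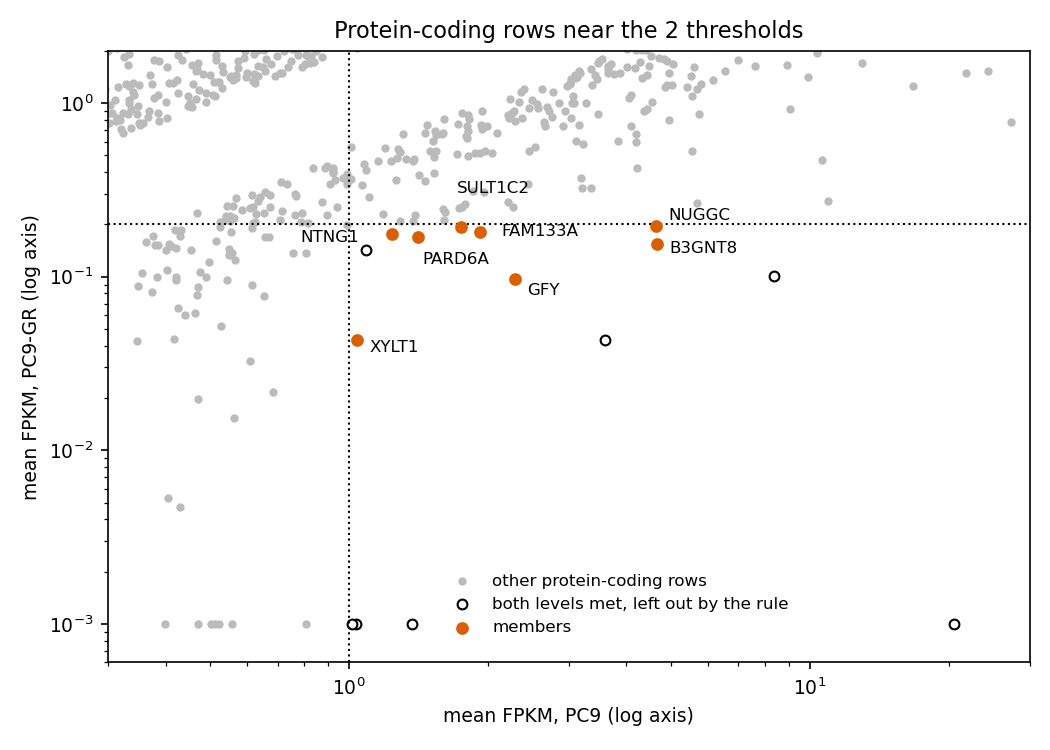
Mean FPKM in PC9-GR against mean FPKM in PC9 for the protein-coding rows near the thresholds, both axes logarithmic and showing part of the full range; orange points are the 8 genes and open circles the 7 rows left out by chromosome or name. NUGGC and B3GNT8 had the highest PC9 means, 4.64 and 4.66 FPKM, while XYLT1 lay close to the PC9 threshold at 1.04 FPKM and had the lowest PC9-GR mean of the 8.

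The sugar-chain enzymes differed most in how firmly their values were set. XYLT1, xylosyltransferase 1, adds the first sugar of the glycosaminoglycan chains to proteoglycan core proteins. It measured 0.0032, 0.0089 and 0.118 FPKM in PC9-GR, against 1.22, 0.891 and 1.01 FPKM in PC9. The groups were far apart, while 1 PC9-GR library stood well above the other two. The means were 0.0433 ± 0.0646 FPKM in PC9-GR and 1.04 ± 0.166 FPKM in PC9 (SD, n = 3 each), a 24.0-fold lower mean. Without PC9-GR replicate 3 that fold was 172, so its size rests on this library. XYLT1 (ENSG00000103489) lies at 17195625 to 17564738 on chromosome 16 in the table, whose genome build is not named. In GENCODE 29 its coding transcript has 9891 bases in 12 exons, and 6 non-coding genes overlap it, 4 of them on its own strand, so reads of these could be counted to it.

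To show what lies at the starts of these genes, the 250 bases before the annotated RefSeq start are printed for 5 of them, chosen to span sparse to dense CpG content, with every CpG dinucleotide, the target of DNA methylation, in capitals. Methylation itself was not measured. For XYLT1 the stretch is chr16:17470961-17471210 on the minus strand of GRCh38.p14 and holds 15 CpG.
XYLT1: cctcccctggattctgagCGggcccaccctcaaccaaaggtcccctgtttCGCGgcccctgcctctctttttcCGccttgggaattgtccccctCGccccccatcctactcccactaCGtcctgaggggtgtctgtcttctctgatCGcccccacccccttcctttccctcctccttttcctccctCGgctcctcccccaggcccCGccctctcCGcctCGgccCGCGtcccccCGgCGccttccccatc

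B3GNT8 was a gene of 1 library. It encodes a beta-1,3-N-acetylglucosaminyltransferase that extends poly-N-acetyllactosamine on branched N-glycans. It measured 0.0438, 0.347 and 0.0693 FPKM in PC9-GR, against 0.0734, 0.198 and 13.7 FPKM in PC9. PC9 replicates 1 and 2 lay inside the range of the PC9-GR libraries, and replicate 3 alone was high. That library held 98.1% of the summed PC9 signal. The means of 0.153 ± 0.168 FPKM in PC9-GR and 4.66 ± 7.83 FPKM in PC9 (SD, n = 3 each) therefore do not describe a level typical of PC9. Without PC9 replicate 3 the PC9 mean was 0.136 FPKM, and the ratio of PC9 to PC9-GR was 0.885 in place of 30.4. B3GNT8 met neither the PC9 level nor the direction of the choice without this library, so it goes against the description of a gene on in PC9.

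B3GNT8 (ENSG00000177191) lies at 41931263 to 41934635 on chromosome 19 in the table. In GENCODE 29 it is a short gene of 3 exons, overlapped by 1 non-coding gene on the opposite strand. The library kit keeps strand, but the strand setting of the counting is not given in the sources used here, so reads of that gene and of B3GNT8 may not have been separated. Its relative B3GNT3, named here after its values were seen, measured 17.7, 16.9 and 16.2 FPKM in PC9-GR, against 41.9, 46.5 and 47.9 FPKM in PC9. The B3GNT3 libraries did not overlap and agreed closely within each line, which the B3GNT8 libraries did not. The 250 bases before the first RefSeq start of B3GNT8, chr19:41428731-41428980 on the minus strand of GRCh38.p14, hold 1 CpG.
B3GNT8: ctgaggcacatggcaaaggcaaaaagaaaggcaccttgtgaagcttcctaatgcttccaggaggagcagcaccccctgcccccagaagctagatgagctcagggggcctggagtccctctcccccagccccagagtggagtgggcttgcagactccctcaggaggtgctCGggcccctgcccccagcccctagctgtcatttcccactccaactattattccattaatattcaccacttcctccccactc

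SULT1C2 was lower in PC9-GR while 2 other sulfotransferase genes were listed as higher. SULT1C2 transfers sulfonate groups to small phenolic molecules. It measured 0.147, 0.385 and 0.0492 FPKM in PC9-GR, against 1.31, 1.80 and 2.13 FPKM in PC9. The PC9-GR values were low but scattered, with replicate 2 above the level of 0.2 FPKM. The means were 0.194 ± 0.173 FPKM in PC9-GR and 1.75 ± 0.414 FPKM in PC9 (SD, n = 3 each), a 9.01-fold lower mean that ran between 6.56-fold and 17.8-fold with 1 library left out. SULT1C2 (ENSG00000198203) lies at 108905094 to 108926371 on chromosome 2 in the table.

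The next listed row on chromosome 2 is SULT1C4, 68.0 kb away, a sulfotransferase of the same subfamily. SULT1C4 measured 0.506, 0.726 and 1.07 FPKM in PC9-GR, against 0.295, 0.197 and 0.148 FPKM in PC9. The direction was opposite to that of SULT1C2, and again the groups did not overlap. SULT1A1, the phenol sulfotransferase, averaged 46.2 ± 3.65 FPKM in PC9-GR and 7.72 ± 0.358 FPKM in PC9, and SULT2B1, which sulfates sterols, averaged 3.97 ± 0.151 FPKM in PC9-GR and 10.6 ± 1.79 FPKM in PC9 (SD, n = 3 each). In a limma fit to the 1207 rows with at least 1 FPKM in at least 3 libraries, on the log2(FPKM + 1) scale, SULT1A1 rose by 2.44 (adjusted p = 8.43e-08) and SULT2B1 fell by 1.22 (adjusted p = 2.03e-05). Such calls are common in this table of selected genes: 48.4% of rows tested were called higher and 51.3% lower. SULT1C4 was below that filter. SULT1A1 has near-identical copies in the genome, and its value is uncertain where reads were split among them.

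The SULT1C2 start is sparse in CpG, with 2 in the 250 bases of chr2:108288645-108288894 on the plus strand of GRCh38.p14.
SULT1C2: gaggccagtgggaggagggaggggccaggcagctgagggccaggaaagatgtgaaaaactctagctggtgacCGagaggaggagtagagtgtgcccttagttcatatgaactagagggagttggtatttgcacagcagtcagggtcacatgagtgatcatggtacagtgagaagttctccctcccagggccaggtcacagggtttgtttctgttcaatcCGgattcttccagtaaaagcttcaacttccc

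PARD6A was lower in all PC9-GR libraries. PARD6A is the alpha form of PAR6, a scaffold that joins atypical protein kinase C to CDC42 at the apical side of epithelial cells and is a known substrate of the TGF-beta type II receptor. It measured 0.172, 0.260 and 0.0787 FPKM in PC9-GR, against 1.12, 1.66 and 1.45 FPKM in PC9. The groups did not overlap, and each PC9 library was above 1 FPKM. The means were 0.170 ± 0.0905 FPKM in PC9-GR and 1.41 ± 0.272 FPKM in PC9 (SD, n = 3 each), an 8.30-fold lower mean that ran between 6.54-fold and 11.3-fold with 1 library left out. PARD6A (ENSG00000102981) is a compact gene at 67694848 to 67696681 on chromosome 16 in the table. Its longest coding transcript in GENCODE 29 has 1260 bases in 3 exons, and no other annotated gene overlaps it.

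PARD6G, the gamma form of PAR6, was the only other listed gene of the PARD name. It measured 0.207, 0.146 and 0.107 FPKM in PC9-GR, against 0.427, 0.307 and 0.424 FPKM in PC9, which is 2.52-fold lower by the means, and it lies on chromosome 18. The start of PARD6A is dense in CpG, with 27 in the 250 bases of chr16:67660710-67660959 on the plus strand of GRCh38.p14.
PARD6A: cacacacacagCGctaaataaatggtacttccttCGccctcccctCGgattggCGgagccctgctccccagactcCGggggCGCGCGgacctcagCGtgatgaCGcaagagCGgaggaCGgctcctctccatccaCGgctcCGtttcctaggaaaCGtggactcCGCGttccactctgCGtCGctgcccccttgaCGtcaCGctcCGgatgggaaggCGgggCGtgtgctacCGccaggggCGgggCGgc

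NTNG1 showed the smallest ratio of the 8 genes. Netrin-G1 is a lipid-anchored surface protein that binds the synaptic adhesion molecule NGL-1 and takes part in axon and synapse patterning. It measured 0.144, 0.127 and 0.260 FPKM in PC9-GR, against 0.927, 0.711 and 2.08 FPKM in PC9. In PC9 replicate 3 lay well above the other two libraries, which were both under 1 FPKM. The means were 0.177 ± 0.0726 FPKM in PC9-GR and 1.24 ± 0.735 FPKM in PC9 (SD, n = 3 each), 6.99-fold lower and 4.62-fold lower without PC9 replicate 3. NTNG1 (ENSG00000162631) spans 107682628 to 108026080 on chromosome 1 in the table. GENCODE 29 gives it 7 coding transcripts, and gene-level FPKM does not tell which of them were present.

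NUGGC and GFY had the widest gaps of the 8 genes between the lines. Their lowest PC9 values were 16.5-fold and 15.8-fold above their highest PC9-GR values. NUGGC encodes a nuclear GTPase of germinal centre B cells that restrains DNA damage by the antibody-diversifying deaminase. It measured 0.142, 0.205 and 0.241 FPKM in PC9-GR, against 3.97, 4.71 and 5.23 FPKM in PC9. The groups were widely separated, and PC9-GR lay close to the 0.2 FPKM level. The means were 0.196 ± 0.0499 FPKM in PC9-GR and 4.64 ± 0.634 FPKM in PC9 (SD, n = 3 each), 23.7-fold lower. NUGGC (ENSG00000189233) is at 27879480 to 27941388 on chromosome 8 in the table, and its longest coding transcript in GENCODE 29 has 19 exons.

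The haematopoietic markers PTPRC, CD3E and CD14 are not among the listed genes. Of 9 markers of that lineage, 5 are listed, 4 with a higher ratio and LYZ with a lower one. The summed FPKM of the 5 was 46.2 to 57.0 in PC9-GR libraries and 20.5 to 24.6 in PC9 libraries, the opposite direction to NUGGC. CD68, which is not restricted to blood cells, made up most of it, at 38.4 ± 3.61 FPKM in PC9-GR and 18.6 ± 1.05 FPKM in PC9 (SD, n = 3 each). Their part in the NUGGC values was not tested.

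GFY, listed in the table under the clone name CTD-3148I10.1 and named here through its identifier ENSG00000261949, is a Golgi membrane protein of olfactory sensory neurons in the mouse. It measured 0.105, 0.128 and 0.0581 FPKM in PC9-GR, against 2.72, 2.12 and 2.03 FPKM in PC9. GFY was the only one of the 8 genes with each PC9-GR library under 0.2 FPKM and each PC9 library at 1 FPKM or more. The means were 0.0972 ± 0.0358 FPKM in PC9-GR and 2.29 ± 0.378 FPKM in PC9 (SD, n = 3 each), 23.5-fold lower, and between 19.6-fold and 28.0-fold lower with 1 library left out. GFY lies at 49927005 to 49932075 on chromosome 19 in the table. Both of its nearest listed neighbours, 35.7 and 17.5 kb away, had a higher ratio in PC9-GR.

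FAM133A, an X-linked gene counted among the cancer-testis genes, was also lower. It measured 0.0715, 0.296 and 0.177 FPKM in PC9-GR, against 2.47, 1.73 and 1.58 FPKM in PC9. The libraries did not overlap, though those of PC9-GR spread over a wide range for their level. The means were 0.181 ± 0.112 FPKM in PC9-GR and 1.93 ± 0.478 FPKM in PC9 (SD, n = 3 each), 10.6-fold lower, with a range of 8.16-fold to 15.5-fold when 1 library was left out. FAM133A (ENSG00000179083) lies at 92929011 to 92967273 on the X chromosome in the table. Symbols starting in FAM are a naming class and not a family, and the other 21 listed ones were split, with 12 of higher and 9 of lower ratio. Among members with RefSeq windows, only FAM133A had the motif TATAAA, searched on both strands in windows that run past the start. The 250 bases before its start, printed here, hold the motif on neither strand. The match therefore takes in bases after the annotated start and is not an upstream TATA box. These 250 bases, chrX:93673956-93674205 on the plus strand of GRCh38.p14, hold 7 CpG.
FAM133A: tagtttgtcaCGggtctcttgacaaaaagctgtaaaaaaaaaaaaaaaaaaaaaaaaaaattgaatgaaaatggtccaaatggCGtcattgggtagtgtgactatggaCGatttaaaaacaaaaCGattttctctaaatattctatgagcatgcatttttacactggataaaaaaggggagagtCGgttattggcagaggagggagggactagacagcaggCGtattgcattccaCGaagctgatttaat

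The spread among PC9 libraries set B3GNT8 and NTNG1 apart from the other genes. It comes from the same PC9 values whose mean chose the genes, so it is not independent of the choice. Without PC9 replicate 3 the PC9 means of B3GNT8 and NTNG1 were 0.136 and 0.819 FPKM, below the level of 1 FPKM. The coefficient of variation (CV) is the SD as a percentage of the mean. Over the 376 protein-coding rows with a PC9 mean of 1 to 5 FPKM the median CV in PC9 was 16.5%. B3GNT8 had a CV of 168%, the highest of the 376 rows. NTNG1 had a CV of 59.3% and ranked 8. The other 6 genes had CVs of 13.7% in NUGGC to 24.8% in FAM133A, and they ranked between 98 and 226.

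**Figure D3:**
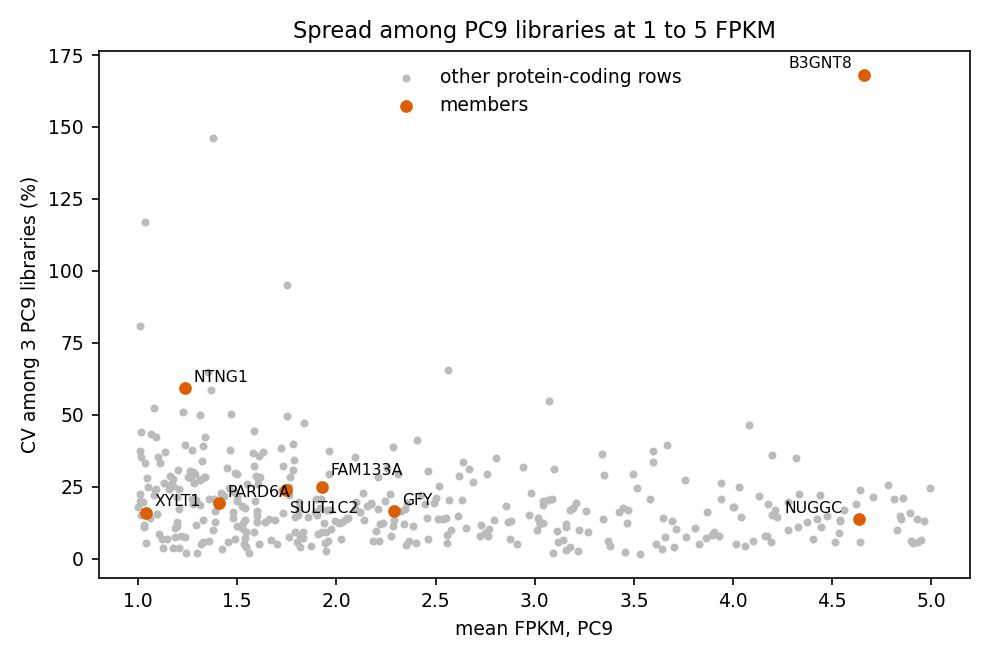
CV among the 3 PC9 libraries in percent against the PC9 mean FPKM, for the 376 protein-coding rows with a PC9 mean of 1 to 5 FPKM; orange points are the 8 genes. B3GNT8 stands alone at 168% and NTNG1 lies at 59.3%, while the other 6 genes lie among the bulk of the rows.

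When the genes were chosen again with 1 library left out, between 6 and 10 rows met both levels. Without PC9 replicate 3, 6 rows were chosen, all of them among the 8, and each had at least 1.01 FPKM in the library left out. Without PC9 replicate 1, 5 of the 7 rows chosen reached 1 FPKM in that library, and B3GNT8 and NTNG1 did not. Without PC9 replicate 2, 5 of the 8 rows chosen did, and B3GNT8, NTNG1 and XYLT1 did not. Without PC9-GR replicate 2, 10 rows were chosen, but only GFY and XYLT1 were under 0.2 FPKM in that library. Without PC9-GR replicate 1, 4 of the 6 rows chosen were under 0.2 FPKM in that library. The rows of DCAF8L2 and NT5DC4 were not, with values of up to 2.25 FPKM. Without PC9-GR replicate 3, 4 of the 8 rows chosen were under 0.2 FPKM in it. These values come from libraries that the repeated choice did not use, although the authors' selection of the table used all 6. How often other rows stay on the same side of a level in a library left out was not counted. The counts are therefore not read as particular to these genes.

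**Figure D4:**
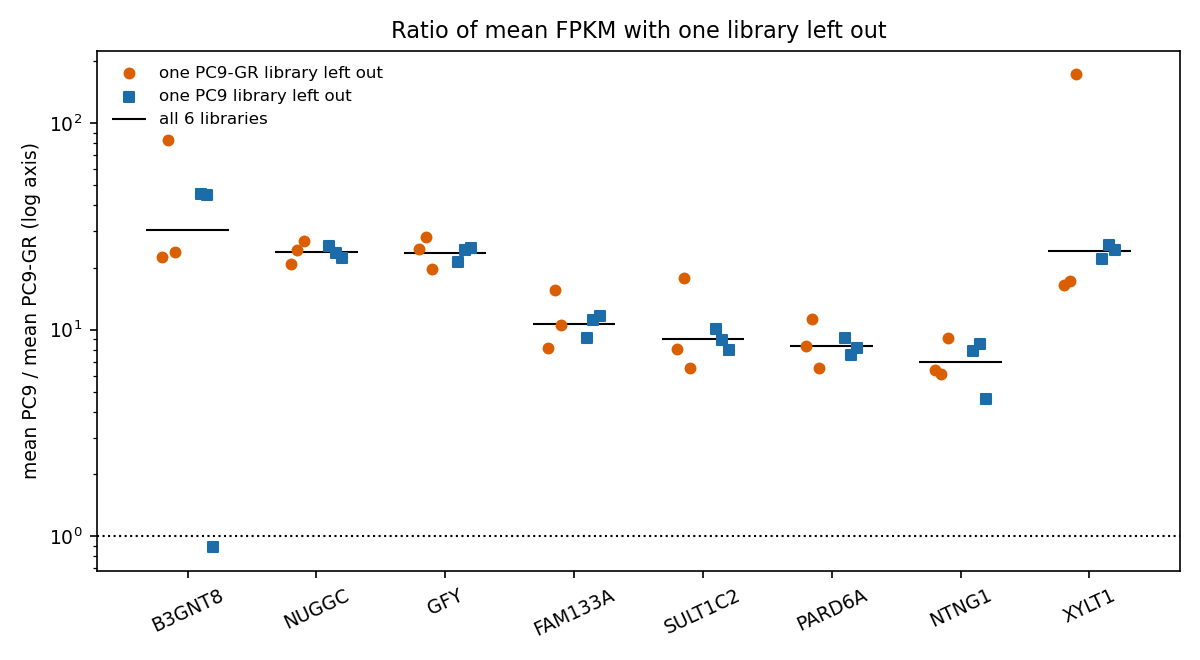
Ratio of mean FPKM in PC9 to mean FPKM in PC9-GR for each of the 8 genes, log axis; circles leave out 1 PC9-GR library, squares 1 PC9 library, and the line is the ratio over all 6 libraries. One square of B3GNT8 falls below the dotted line at 1, at 0.885, and 1 circle of XYLT1 lies at 172.

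The authors' deposited table gives the 8 genes log2 ratios of PC9-GR to PC9 between -2.80 for NTNG1 and -4.68 for XYLT1. Their q-value was under 0.05 for 7 of the 8, against 88.4% of the 1705 rows of the table. XYLT1, with the most negative log2 ratio of the 8, had a p-value of 0.0193 and a q-value of 0.0566 in the authors' deposited table. B3GNT8 had a q-value of 0.000788 there in spite of its 1 high library. The authors' deposited group level of B3GNT8 was 0.161 FPKM in PC9-GR and 3.77 FPKM in PC9, and this PC9 level lies below the mean of its 3 libraries.

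Both levels were met narrowly by some genes. The genes just under 0.2 FPKM in PC9-GR were NUGGC and SULT1C2, at 0.196 and 0.194 FPKM. Just above it lay GIPR, the receptor of an incretin hormone, at 0.208 FPKM in PC9-GR and 1.38 FPKM in PC9. The PC9 mean of GIPR rests on replicate 2, with 3.70 FPKM against 0.289 and 0.143 FPKM in replicates 1 and 3. SPDEF, a transcription factor of secretory epithelium, followed at 0.209 FPKM in PC9-GR and 1.29 FPKM in PC9. On the PC9 side XYLT1 and NTNG1 were just inside at 1.04 and 1.24 FPKM, and TMEM61 and MT1E just outside at 0.807 and 0.806 FPKM. With libraries scaled to equal totals over the listed genes, GFY alone met both levels, and with median-ratio scaling 13 rows did, including all 8.

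The 8 genes did not lie together. They are spread over 6 chromosomes, and the pairs on chromosomes 16 and 19 are 50130 and 7992 kb apart. No listed row overlaps any of them. Of their 16 nearest listed neighbours, 10 had a lower and 6 a higher ratio, and none was another of the 8. Over the coding rows, 644 beside the 8 had a lower ratio and 723 a higher one. The directions of the neighbours were not tested.

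CpG content at the starts varied from sparse to dense. RefSeq windows of 300 bases, 250 before the start and 50 after it, were found for 7 of the 8 genes (all but NUGGC), 11 windows in all, because B3GNT8, GFY and NTNG1 have several. The observed over expected CpG ratio was 0.0424 and 0.294 in the B3GNT8 windows, 0.141 in SULT1C2 and 0.545 and 0.142 in GFY. It was 0.586 in XYLT1, 0.721 in FAM133A, 0.971 in PARD6A and 0.639, 0.690 and 0.959 in NTNG1. The median of the 11 was 0.586, against 0.579 for all 35116 RefSeq windows, whose quartiles were 0.229 and 0.856. So CpG-poor and CpG-rich starts both occurred among the 8 genes.

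**Figure D5:**
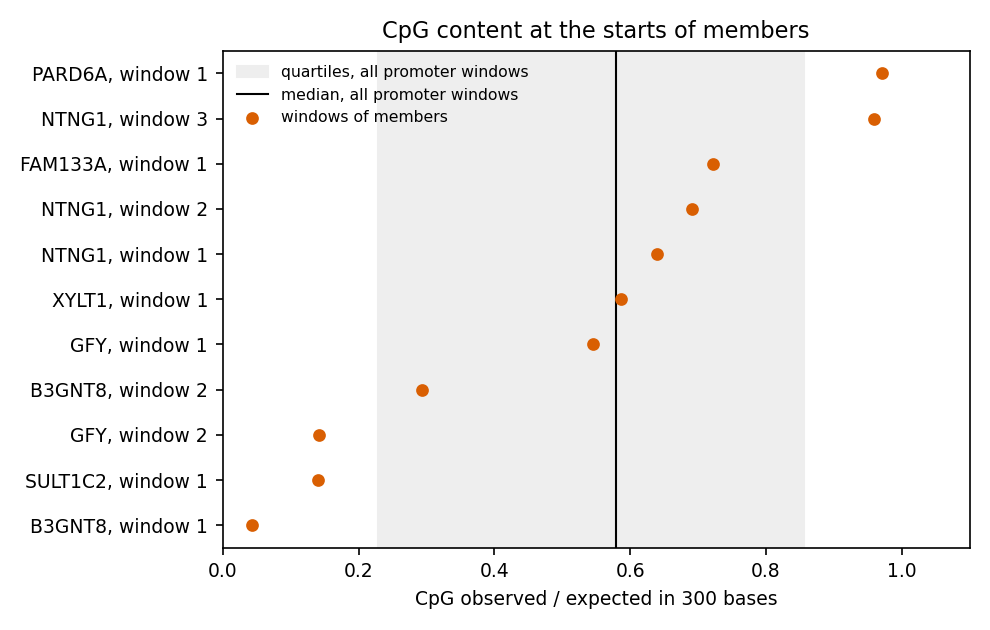
Observed over expected CpG ratio in the 300-base windows at the RefSeq starts of 7 of the 8 genes (points), with the median (line) and the quartiles (grey band) of all 35116 windows. The points run between 0.0424 in a B3GNT8 window and 0.971 in PARD6A, on both sides of the median of 0.579.

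Short motifs were searched on both strands. The GC box GGGCGG was in 6 of the 11 windows, against 45.0% of all windows. The E-box CACCTG, the core to which ZEB and SNAI repressors bind, was in 2 of the 11, those of PARD6A and the second of GFY, against 20.6%. The 250 bases before the PARD6A start, printed above, hold CACCTG on neither strand. The PARD6A match therefore takes in bases after the annotated start and is not an upstream E-box. TATAAA was in 1 of the 11, against 11.5%, and the AP-1 motif TGANTCA in none, against 7.71%. No motif searched contains another. With 11 windows of 7 genes these shares are a description, and a match is not a binding site.

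Factors known to silence genes were mostly not among the listed genes. None of 34 Polycomb genes and none of 28 genes for histone deacetylation or histone H3 lysine 9 methylation is listed. Of 18 DNA methylation genes, the methyl-CpG binding proteins MBD1 and MBD2 are listed, and limma called both lower, as it did 51.3% of all rows tested. MBD2 averaged 35.0 ± 0.734 FPKM in PC9-GR and 82.2 ± 3.30 FPKM in PC9, and MBD1 averaged 7.09 ± 0.802 FPKM in PC9-GR and 16.7 ± 2.11 FPKM in PC9 (SD, n = 3 each). Both lie on chromosome 18. Of 11 repressors of epithelial genes, 4 are listed, with ZEB1, ZEB2 and SNAI1 called higher and TCF4 called lower. Over all rows tested 48.4% were called higher and 51.3% lower, so a call alone sets none of these genes apart. ZEB2 also passed the limma filter through PC9-GR alone, so its higher call is conditioned on this contrast. ZEB1 averaged 5.49 ± 0.633 FPKM in PC9-GR and 0.907 ± 0.128 FPKM in PC9, and ZEB2 averaged 4.07 ± 0.746 FPKM in PC9-GR and 0.321 ± 0.217 FPKM in PC9 (SD, n = 3 each). SNAI1 averaged 4.09 ± 0.0911 FPKM in PC9-GR and 1.45 ± 0.0822 FPKM in PC9 (SD, n = 3 each; limma log2 difference 1.05, SE 0.03, adjusted p = 2.01e-05).

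Of 29 transcription factors of epithelial lineages, 7 are listed and limma called all 7 lower, where 51.3% of all rows tested were called lower. Their median log2 difference was -1.06. The median over the 1207 rows tested was -0.63, and without the filter, over 1705 rows, it was 0.29. These medians mix rows of both directions, so they do not show whether the 7 fell more than other lower rows. ELF5, a factor of secretory epithelium, averaged 1.95 ± 0.117 FPKM in PC9-GR and 10.4 ± 0.987 FPKM in PC9 (SD, n = 3 each; limma log2 difference -1.94, SE 0.08, adjusted p = 7.72e-07). SPDEF, just outside the levels of the choice, measured 0.102, 0.236 and 0.291 FPKM in PC9-GR, against 1.13, 1.32 and 1.43 FPKM in PC9. Its libraries did not overlap (limma log2 difference -0.92, SE 0.09). SPDEF passed the limma filter of 1 FPKM in 3 libraries through PC9 alone. Its lower call is therefore conditioned on this contrast and is not read as a test. With equal library totals 4 of the 7 were called lower: GRHL3 (limma adjusted p = 0.111, against as little as 0.000131 in other settings) and PITX1 (limma adjusted p = 0.0535, against as little as 1.91e-06) were not, and SPDEF dropped under the filter.

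Markers of other cell types had ratios in both directions. Of 12 squamous markers, 9 are listed, 8 with a lower and 1 with a higher ratio. For comparison, 644 coding rows beside the 8 genes had a lower ratio and 723 a higher one. The summed FPKM of the 9 squamous markers was 106 to 132 in PC9-GR libraries and 521 to 867 in PC9 libraries. Of 10 endothelial and fibroblast markers, 8 neural markers and 7 liver and gut markers, 1 each is listed, with a higher ratio. Their part in the values of the 8 genes was not tested.

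The mirror pattern was more frequent among the rows that the exclusions left. With the same exclusions, 33 protein-coding genes had a mean under 0.2 FPKM in PC9 and at least 1 FPKM in PC9-GR, against the 8 described here. These exclusions took out 7 of the 15 coding rows that met both levels on the PC9 side. The mirror pattern was not counted without them, so the contrast of 33 with 8 holds only under the exclusions. The count of 33 was not repeated under other scalings of the libraries.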

How the data were processed

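Total RNA of 3 PC9-GR and 3 PC9 cultures was sequenced from strand-specific libraries. TopHat and Cufflinks were used, per the submitters' processing notes; no version, genome build or annotation was found in the labels. Per the file headers, the deposited columns are FPKM by library and by group, a ratio (PC9-GR over PC9), the log2 of this ratio, and the q-value with its p-value. That table is the authors' selection of genes, so every share over it is conditioned on that selection.

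The 8 genes, the lists and the tests were chosen with earlier results of these data known. Genes named are the 8, their neighbours at each threshold, listed members of the gene and marker lists, rows of a member's family by symbol root, and neighbouring rows; B3GNT3 was added after its values were seen. FPKM was used as deposited. Levels are means ± SD over 3 libraries, with no test for the 8. Of them, 5 passed a filter of 1 FPKM in 3 libraries, through PC9 alone. For other genes limma 3.58.1 in R 4.3.3 was fitted to log2(FPKM + 1) over 1207 rows, with a variance trend. Tests were two-sided, Benjamini-Hochberg adjusted and called under 0.05. The fit was checked on simulated data in which most rows were unchanged. In the real data nearly all rows tested were called, so that check does not show how reliable the calls are here. The pseudocount of 1 understates changes of low genes. Each SE printed comes from the residual SD of that gene alone. The p-values use a variance moderated over all genes, so they do not follow from the SE beside them. Tables were made with Python 3.11.15 and pandas 2.3.3. Names and RefSeq windows (GRCh38.p14) were matched by identifier, and coordinates of the table were not mixed with them. Windows were found for 491 of 644 other lower and 527 of 723 higher coding rows, under 80% of each, so the comparison with these rows is void and only all windows are used.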

Additional observations from a re-analysis of the deposited data

How the results depend on the processing

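The number of genes meeting both levels depended on the levels. It was 2 at 0.1 FPKM and 38 at 0.5 FPKM in PC9-GR, 3 at 2 FPKM and 25 at 0.5 FPKM in PC9, and 1 when every library had to meet its level. It was 1 with equal library totals, 13 with median-ratio scaling, 7 with the deposited group FPKM, 6 with medians (added after the data were seen) and 6 to 10 with 1 library left out. On the log2(FPKM + 1) scale, equal totals moved the median gene by 0.62 and median-ratio scaling by -0.23. Without PC9 replicate 3 the log2 difference of B3GNT8 was 0.015, the reverse of its direction over all libraries; the other settings without 1 library gave values down to -1.87.

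Over the table, limma called 619 lower and 584 higher. It called 393 and 234 with a filter at 5 FPKM, where fewer genes were tested. With 1 library left out it called 513 to 615 lower and 382 to 580 higher; higher calls were 384, 382 and 385 without PC9-GR replicates 1, 2 and 3, since the filter still asked for 3 libraries. The epithelial repressors had 2 to 3 higher calls with 1 library left out and 0 with the filter at 5 FPKM. At that filter ZEB1, ZEB2 and SNAI1 were not tested, and ZEB2 was not tested whenever 1 PC9-GR library was left out. The lineage factors had 6 to 7 lower calls with 1 library left out and 4 with equal totals. SPDEF was not tested whenever 1 PC9 library was left out. Replicate numbers did not pair the cultures (correlations of -0.10, 0.08 and 0.16), and a replicate block gave 619 lower and 586 higher.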

Other observations

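Signal in 1 library alone was rare in the table. Of 1001 rows with a PC9 mean of at least 1 FPKM, 4 had a highest PC9 library more than 10 times the median library, and of 1133 rows with such a PC9-GR mean, 2 did. These genes were chosen after their values were seen. Beside B3GNT8, the PC9 rows were GIPR, with 3.70 FPKM in replicate 2 and 0.289 and 0.143 FPKM in replicates 1 and 3, the pseudogene CBX3P2, with 12.3 FPKM in replicate 2, and a row named Y_RNA (ENSG00000261519), with 6.48 FPKM in replicate 3. Of the PC9-GR rows, C1orf132 measured 9.03 FPKM in replicate 1 and 0.112 and 0.101 FPKM in replicates 2 and 3, against 0.0688 to 0.110 FPKM in PC9. The cause was not tested.

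Another 12 rows that are not protein-coding met both levels of at least 1 FPKM in PC9 and under 0.2 FPKM in PC9-GR.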
